A study of Homo sapiens with 2 samples.

Results

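The miR-23/24/27 members were followed in Jurkat cells, a human T lymphocyte leukemia line. Members were the 8 mature miRNAs of the 23a/27a/24-2 and 23b/27b/24-1 clusters that a fixed list named, matched by identifier: hsa-miR-23a-3p, hsa-miR-27a-3p, hsa-miR-24-3p, hsa-miR-23b-3p, hsa-miR-27b-3p, hsa-miR-27a-5p, hsa-miR-24-2-5p and hsa-miR-27b-5p. All 8 were in the table of 1450 mature miRNAs, and all 8 passed the filter on low values. The PELATON overexpression group was Jurkat cells carrying an overexpression lentivirus for the long noncoding RNA that the study names PELATON and the labels name lnc-CEBPB-13, and the control group was Jurkat cells carrying a control lentivirus. By the study's methods both lines were selected with puromycin, so both groups shared infection and selection. The table held no long noncoding RNA, so the labels could not be checked against PELATON itself, and "overexpression" below means the libraries labelled so. The direction of every difference rests on those labels. The labels list 1 sample a group, but each group mean in the table was the mean of 2 libraries, A and B, whose whole reads were recovered from it. The letters only name libraries and pair none of them. Neither the labels nor the methods say that the libraries came from separate cultures, so the p-values measure the spread between these libraries, which may be technical.

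The members come from 2 clusters of hairpins, each processed from a shared primary transcript. A hairpin gives a 5p and a 3p arm, and the seed near the 5′ end of a mature miRNA pairs with target mRNAs. Th2 cells are helper T cells that make IL-4, IL-5 and IL-13 under the transcription factor GATA3. In mouse T cells, miR-24 is known to repress Il4 and miR-27 to repress Gata3, and both clusters restrain Th2 differentiation.

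The 5 mature sequences of the 3p arm are shown because the results turn on which of them share a seed and on how few bases tell the paralogs apart. Sequences and positions are those of RefSeq on GRCh38.p14, 5′ to 3′, and capitals mark the seed, bases 2 to 8.
hsa-miR-23a-3p: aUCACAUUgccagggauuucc
hsa-miR-23b-3p: aUCACAUUgccagggauuaccac
hsa-miR-27a-3p: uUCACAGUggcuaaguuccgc
hsa-miR-27b-3p: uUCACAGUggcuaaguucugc
hsa-miR-24-3p: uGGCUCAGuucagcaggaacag
The miR-23 and miR-27 seeds differ within an otherwise shared stretch, whereas miR-24 has a seed of its own. Counted from 1 at the 5′ end, miR-23a-3p and miR-23b-3p differed by U19A over the 21 bases compared, and miR-23b-3p was longer, with 23 bases against 21. miR-27a-3p and miR-27b-3p differed by C19U alone. A read that stops before base 19 fits both paralogs, and how such reads were assigned is not given in the sources used here. The split between 23a and 23b, and between 27a and 27b, is therefore uncertain to that extent.

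The 3 members of the 5p arm are shown because, unlike the 3p arms, they keep 27a and 27b apart within the seed.
hsa-miR-27a-5p: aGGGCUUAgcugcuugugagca
hsa-miR-27b-5p: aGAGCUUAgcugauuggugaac
hsa-miR-24-2-5p: uGCCUACUgagcugaaacacag
miR-27a-5p and miR-27b-5p differed at 8 of 22 bases, the first of them G3A in the seed. miR-24-2-5p shares its seed with miR-24-1-5p, the arm of the other cluster, from which it differed at 6 of 22 bases.

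The 23a/27a/24-2 cluster spans 373 bases on the minus strand of chromosome 19, from 13836287 to 13836659, inside the long noncoding host gene MIR23AHG, and GENCODE places the hairpins over exonic sequence. miR-23a-3p lies at chr19:13836595-13836615, miR-27a-3p at chr19:13836447-13836467 and miR-27a-5p at chr19:13836487-13836508. miR-24-2-5p lies at chr19:13836326-13836347. The 23b/27b/24-1 cluster lies on chromosome 9, plus strand, over 881 bases between 95085208 and 95086088, inside the aminopeptidase gene AOPEP, which GENCODE lists as C9orf3. MIR23B and MIR27B are intronic there, and MIR24-1 overlaps an exon of a C9orf3 transcript. miR-23b-3p lies at chr9:95085265-95085287, miR-27b-3p at chr9:95085505-95085525 and miR-27b-5p at chr9:95085463-95085484. miR-24-3p is the same sequence from both clusters, at chr19:13836289-13836310 and at chr9:95086064-95086085, so its reads cannot be divided between them.

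**Figure D1:**
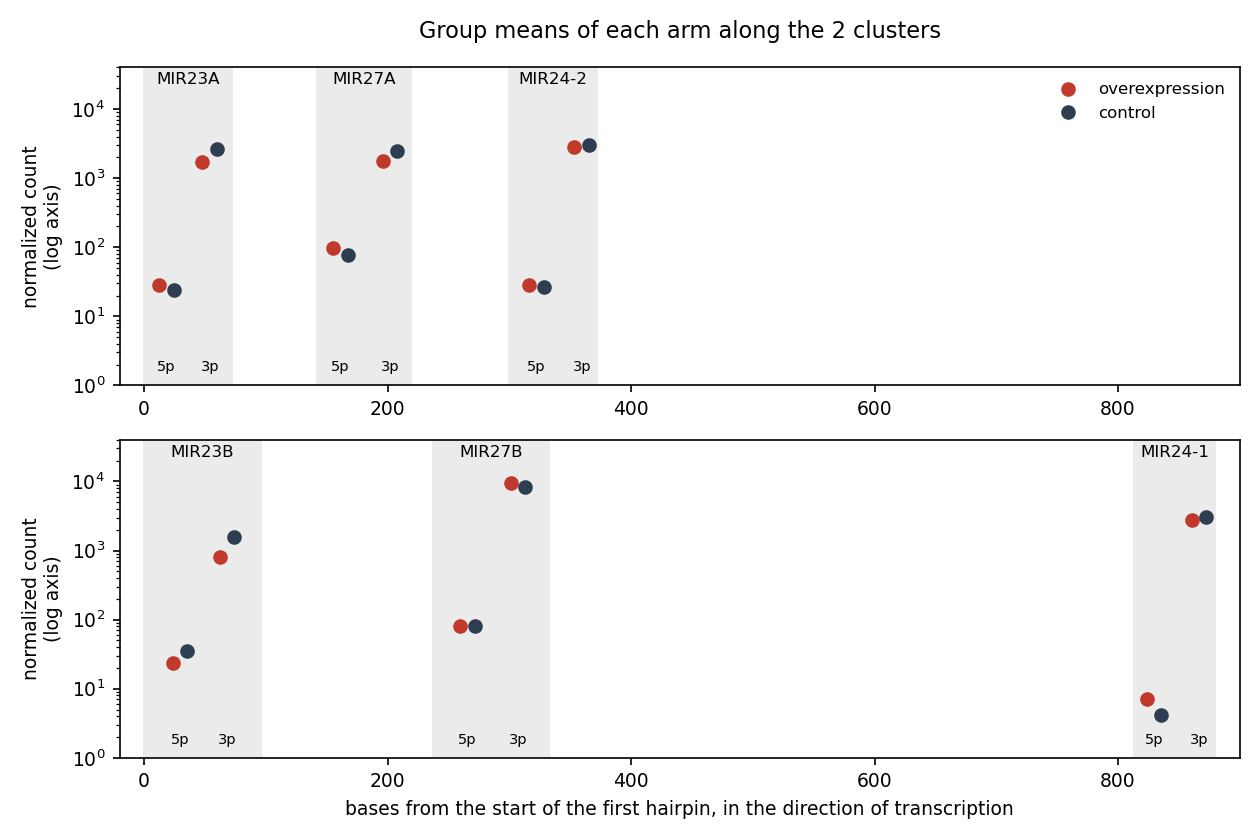
Group means (normalized counts, log axis) of each mature arm against its distance in bases from the start of the first hairpin of its cluster, with 23a/27a/24-2 above and 23b/27b/24-1 below, overexpression in red and control in dark blue. Grey blocks are the hairpins, miR-24-3p is drawn at both of its hairpins, and the widest gap between groups in the 3p arm is at MIR23B, with means of 815 and 1591.

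The libraries held 2052494 and 1177485 reads in the overexpression group and 2615868 and 2663279 reads in the control group. The 8 members took 0.916% and 0.891% of the reads in overexpression libraries and 0.821% and 0.857% in control libraries. Levels below are normalized counts, that is reads divided by a size factor for each library, with library A before library B. miRNAs differ little in length, so levels are compared between members with no correction for length. Whether the library preparation captured all sequences alike was not tested, so ranks, shares and ratios between members describe reads. miR-27b-3p was the most abundant member at rank 42 of 1450, and miR-24-3p followed at rank 87. miR-23a-3p and miR-27a-3p stood at ranks 107 and 109, miR-23b-3p at rank 138, and the 3 members of the 5p arm between ranks 312 and 438. The ranges over the 4 libraries were apart between miR-27b-3p and miR-24-3p, between miR-23b-3p and miR-27a-5p, and between miR-27b-5p and miR-24-2-5p. The other neighbours in this order overlapped in range: miR-23a-3p exceeded miR-27a-3p in 3 of 4 libraries, and miR-27a-5p exceeded miR-27b-5p in 2 of 4.

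**Figure D2:**
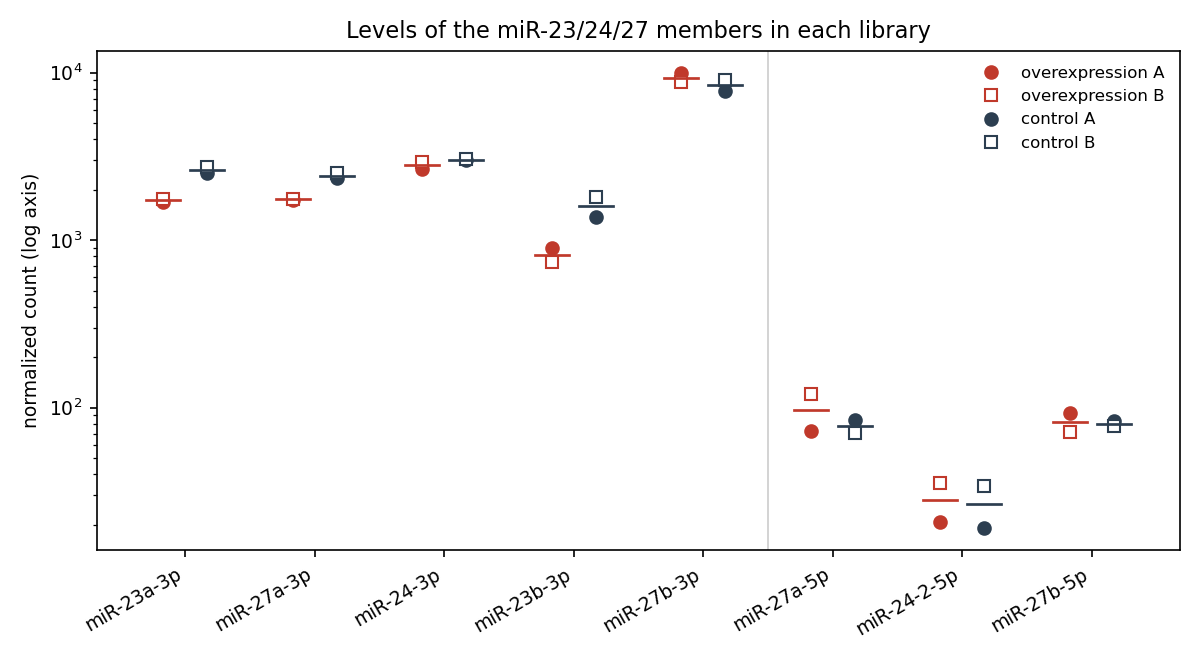
Normalized counts (log axis) of the 8 members in each library, overexpression left of control, with 1 point a library and a line at the group mean. miR-23a-3p, miR-27a-3p, miR-24-3p and miR-23b-3p had both overexpression libraries below both control libraries, whereas the other 4 members overlapped.

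The question of the comparison was whether these miRNAs differed between cells with PELATON overexpression and control cells. miR-23b-3p fell, and it was the 1 member of 8 that passed the test. The other 3 members with lower, non-overlapping levels, miR-23a-3p, miR-27a-3p and miR-24-3p, missed the threshold, and miR-27b-3p and the 5p arms overlapped between groups. The test was limma on log2(normalized count + 1), with Benjamini-Hochberg adjustment over the 1115 miRNAs with a mean of at least 1, and a call was an adjusted p under 0.05. Of those 1115 miRNAs, 21 (1.88%) were called higher and 34 (3.05%) lower with overexpression, while upper-quartile scaling called 19 higher and 56 lower and scaling by total reads called 16 higher and 8 lower.

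miR-23b-3p, a miR-23 paralog of the 23b/27b/24-1 cluster, had 895 and 736 normalized counts in overexpression libraries, against 1381 and 1800.5 in control libraries. Both overexpression libraries were below both control libraries, and the libraries within a group differed by 1.22-fold (overexpression) and 1.304-fold (control). The limma difference was -0.96 on the log2 scale (SE 0.20, 95% interval -1.42 to -0.49, adjusted p = 0.0349), a level of 51.5% of control. The call was lost with scaling by total reads (-0.72, adjusted p = 0.0989), with that total less the 10 most abundant miRNAs (-0.73, adjusted p = 0.106), with a pseudocount of 0.5 (adjusted p = 0.0521) and with a constant prior variance (adjusted p = 0.389). It was also lost in each of the 4 fits without a library, where differences of -1.15 to -0.77 had adjusted p of 0.219 to 0.430, but those fits called 0 of all 1115 miRNAs.

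miR-23a-3p, which shares the seed of miR-23b-3p, had 1691 and 1768 normalized counts in overexpression libraries, against 2509 and 2718 in control libraries. The groups did not overlap, and the gap between them was wider than the 1.05-fold and 1.08-fold spreads within the overexpression and control groups. The limma difference was -0.59 (SE 0.16, 95% interval -0.96 to -0.23, adjusted p = 0.0840), which did not pass. It passed with upper-quartile scaling (-0.75, adjusted p = 0.0386) and with a minimum mean of 50 (adjusted p = 0.0364), whereas scaling by total reads gave -0.36 (adjusted p = 0.256), that total less the 10 most abundant miRNAs -0.37 (adjusted p = 0.245), and a constant prior variance an adjusted p of 0.472.

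miR-27a-3p, the miR-27 paralog of the 23a/27a/24-2 cluster, had 1738 and 1763 normalized counts in overexpression libraries, against 2345 and 2514 in control libraries. These groups did not overlap either, but the limma difference of -0.47 did not pass (SE 0.16, 95% interval -0.84 to -0.11, adjusted p = 0.168), and it was -0.23 with scaling by total reads (adjusted p = 0.446) and -0.25 with that total less the 10 most abundant miRNAs (adjusted p = 0.424). miR-27b-3p, its paralog on chromosome 9, had 9894 and 8817 normalized counts in overexpression libraries, against 7780 and 9090 in control libraries. Overexpression library A was the highest of the 4 and control library A the lowest, while overexpression library B was below control library B. The limma difference was 0.15 (SE 0.16, 95% interval -0.22 to 0.53, adjusted p = 0.714), and with upper-quartile scaling it was -0.0073.

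miR-24-3p, the product of both clusters, had 2667 and 2937 normalized counts in overexpression libraries, against 2999 and 3060 in control libraries. The groups did not overlap, although overexpression library B lay only slightly below control library A. The limma difference was -0.11 (SE 0.16, 95% interval -0.48 to 0.25, adjusted p = 0.780), and it changed sign with scaling by total reads (0.12) and by that total less the 10 most abundant miRNAs (0.11).

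Read against all miRNAs tested, 4 of 8 members were lower without overlap and 0 were higher, beside 23.8% of the 1115 miRNAs lower and 22.4% higher without overlap. These counts depend on the scaling. As a share of all reads, miR-24-3p overlapped (0.143% and 0.161% in overexpression libraries, 0.143% and 0.135% in control libraries). By that measure miR-27b-3p was higher without overlap (0.531% and 0.483%, against 0.372% and 0.402% in control libraries). The matching counts over all miRNAs were not computed. None of the 8 members differed by 2-fold between group means, while 14.7% of miRNAs were at least 2-fold lower and 15.6% at least 2-fold higher. At an unadjusted p under 0.05, 3 of 8 members and 207 of 1115 miRNAs passed. The median log2 difference was -0.47 over the 5 members of the 3p arm, 0.09 over the 3 of the 5p arm and -0.05 over all 8, beside 0.03 over all miRNAs tested. That median was 0.26 with scaling by total reads and -0.11 with upper-quartile scaling, so the size of any member's difference depends on the scaling.

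**Figure D3:**
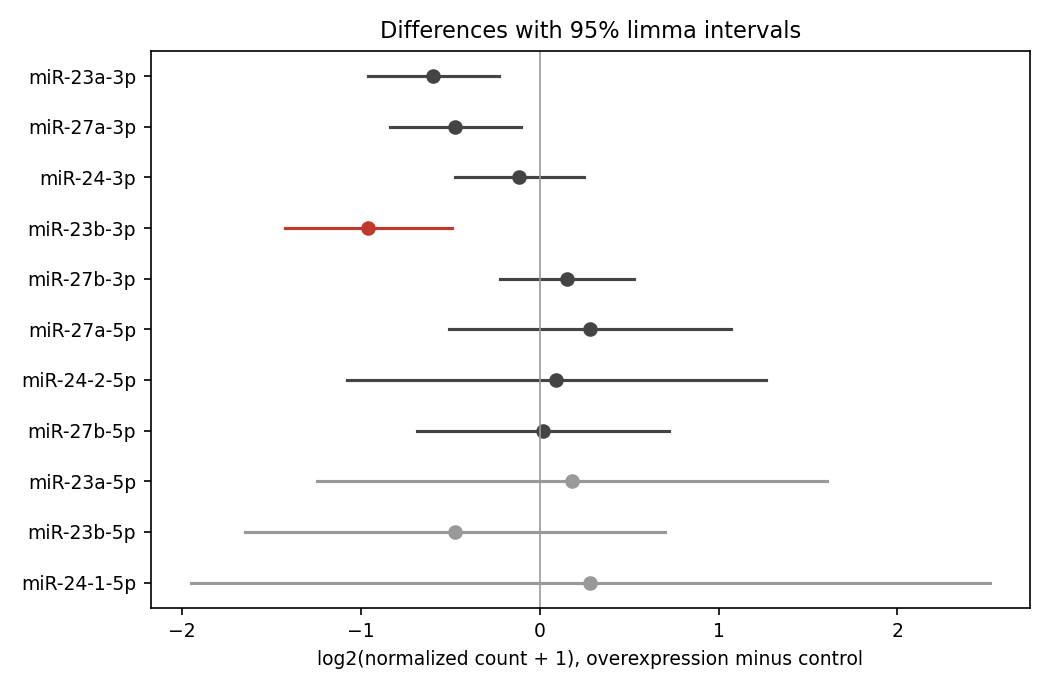
limma log2 differences, overexpression minus control, of the 8 members and of 3 other arms of the same hairpins, with bars for 95% intervals and a line at 0, the member that passed in red, the other members in black and the other arms in grey. The interval of miR-23b-3p runs from -1.42 to -0.49, those of miR-23a-3p and miR-27a-3p also lie below 0, and all others include 0.

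Ratios between members within a library do not depend on the scaling, and they showed which members moved apart. They were not tested, since an exact permutation test of 2 against 2 libraries cannot go below p = 0.333. The intervals are exact binomial (Clopper-Pearson, 95%) and cover counting error only. miR-27b-3p and miR-23b-3p come from neighbouring hairpins, and miR-27b-3p had 11.1 reads per miR-23b-3p read (10.4 to 11.8) in overexpression library A and 11.98 (10.9 to 13.2) in overexpression library B. In control libraries this ratio was 5.63 (5.35 to 5.93) in A and 5.05 (4.82 to 5.29) in B. The ratio was thus 2.16-fold higher with overexpression, with counting intervals of the groups apart. Ratios of miR-27 over miR-23 were not named in the plan, and this one sets the called member against a neighbour that was not lower. No ratios between other miRNAs were computed as a background.

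The same ratio at the other cluster, miR-27a-3p over miR-23a-3p, was 1.03 and 0.997 in overexpression libraries, against 0.935 and 0.925 in control libraries. The groups did not overlap, but the change was 1.09-fold and the counting intervals did, with 0.918 to 1.08 in overexpression library B and 0.888 to 0.983 in control library A. The difference between the clusters in this ratio was not tested.

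Between paralogs, miR-27b-3p over miR-27a-3p was 5.69 and 5.001 in overexpression libraries, against 3.32 and 3.62 in control libraries, 1.54-fold higher with overexpression. miR-23b-3p over miR-23a-3p was 0.529 and 0.416 in overexpression libraries, against 0.550 and 0.663 in control libraries. This ratio was lower in both overexpression libraries, but its counting intervals overlapped between overexpression library A (0.489 to 0.572) and control library A (0.519 to 0.584). Its log2 change was -0.36, with -0.19 without overexpression library B and -0.54 without overexpression library A. The 23b share of miR-23 and the 27b share of miR-27 thus differed in opposite directions, although both b paralogs come from the same cluster.

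miR-24-3p over miR-27a-3p was 1.53 and 1.67 in overexpression libraries, against 1.28 and 1.22 in control libraries. miR-24-3p over miR-27b-3p was 0.270 and 0.333 in overexpression libraries, against 0.385 and 0.337 in control libraries, where overexpression library B and control library B nearly met. The log2 change of this last ratio was -0.27, with -0.42 without overexpression library B and -0.11 without overexpression library A. Relative to miR-24-3p, miR-27a-3p was therefore lower in both overexpression libraries. For miR-24-3p over miR-27b-3p, the counting intervals overlapped between overexpression library B (0.316 to 0.351) and control library B (0.324 to 0.350). Relative to miR-24-3p, miR-27b-3p was thus higher beyond counting error in overexpression library A only.

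**Figure D4:**
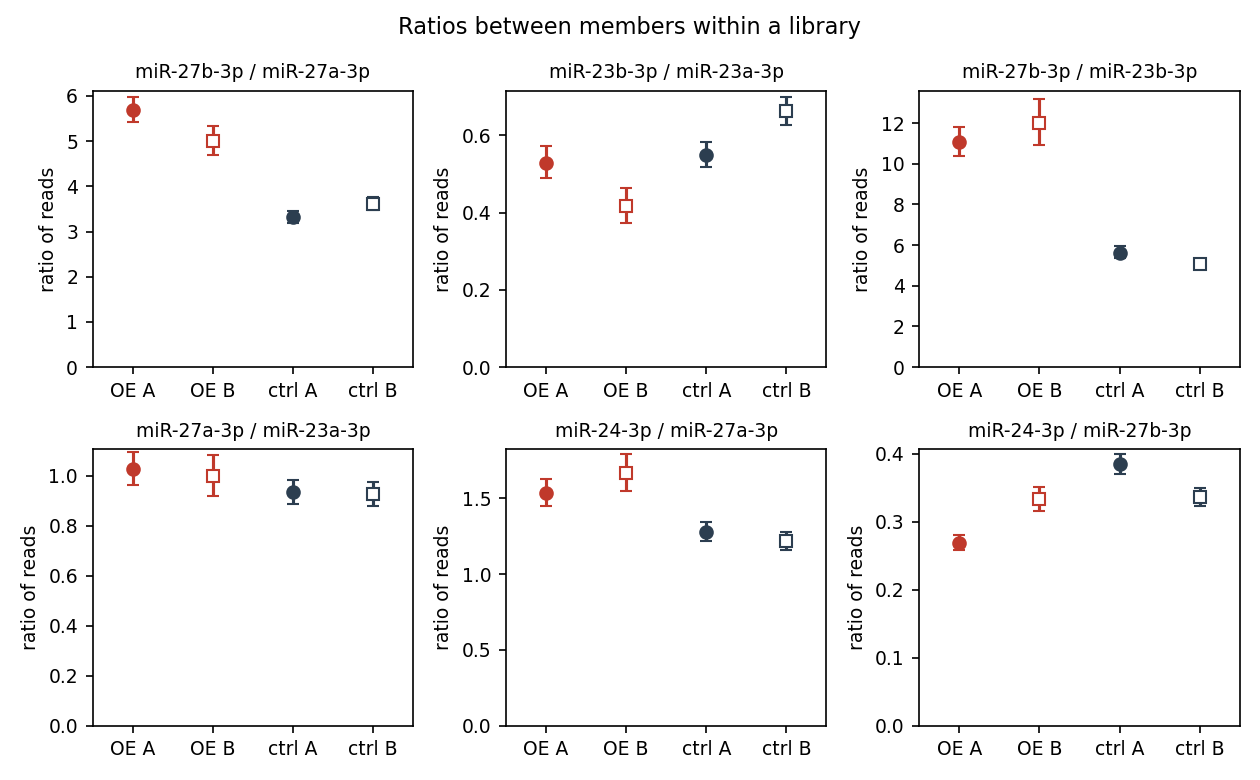
Ratios of reads between members within each library for 6 pairs (linear axes from 0), overexpression (OE) left of control (ctrl), with 1 point a library and bars for 95% exact binomial intervals of the reads. miR-27b-3p over miR-23b-3p stands at 11.1 and 11.98 in overexpression libraries and at 5.63 and 5.05 in control libraries.

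Summed by seed, the miR-23 pair had 2586 and 2504 normalized counts in overexpression libraries, against 3890 and 4518 in control libraries. The groups did not overlap, and the log2 difference of the sums was -0.72. The miR-27 pair had 11631 and 10580 normalized counts in overexpression libraries, against 10125 and 11604 in control libraries, which overlapped. miR-27b-3p made up most of this sum in every library. Of the 5 members of the 3p arm together, the miR-23 seed took 15.3% and 15.6% in overexpression libraries, against 22.9% and 23.6% in control libraries. The miR-27 seed took 68.9% and 66.0% in overexpression libraries, against 59.5% and 60.5% in control libraries. The miR-24 seed took 15.8% and 18.3% in overexpression libraries, against 17.6% and 15.95% in control libraries, which overlapped. Other miRNAs of the table with these seeds added little: miR-23c had 0 to 4 reads a library, and miR-9985, which has the miR-27 seed, had 0 to 2.

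None of the 5p arms passed the test. miR-27a-5p had 80 and 78 reads in overexpression libraries, against 105 and 83 in control libraries, or 72.7 and 121 normalized counts against 84.1 and 70.4 in control libraries. Overexpression library B was the highest of the 4 and overexpression library A lay between the control libraries, and the limma difference was 0.28 (SE 0.34, adjusted p = 0.744). miR-27b-5p had 92.6 and 71.3 normalized counts in overexpression libraries, against 83.3 and 77.2 in control libraries, with both control libraries between the overexpression libraries. Its limma difference was 0.02 (SE 0.31, adjusted p = 0.982).

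miR-24-2-5p, which unlike miR-24-3p marks the chromosome 19 cluster, had 20.9 and 35.6 normalized counts in overexpression libraries, against 19.2 and 33.9 in control libraries. Its libraries differed more within a group (1.71-fold in overexpression, 1.77-fold in control) than the group means did, and the limma difference was 0.09 (SE 0.51, adjusted p = 0.948). The arms of the hairpins that were not members were also low. miR-23a-5p had 41.8 and 15.5 normalized counts in overexpression libraries, against 32.8 and 15.3 in control libraries (limma 0.18, SE 0.62, adjusted p = 0.922). miR-23b-5p had 26.3 and 20.1 normalized counts in overexpression libraries, against 47.2 and 22.1 in control libraries (limma -0.47, SE 0.51, adjusted p = 0.716). miR-24-1-5p had 2 and 8 reads in overexpression libraries, against 6 and 4 in control libraries (limma 0.28, SE 0.98, adjusted p = 0.921). The 95% interval of all 3 of these arms held both 0 and a difference of the size seen for miR-23b-3p.

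The 5p arm took a higher share of the miR-27a reads in both overexpression libraries. It took 4.01% (3.20 to 4.97) and 6.41% (5.10 to 7.94) in overexpression libraries, against 3.46% (2.84 to 4.17) and 2.72% (2.18 to 3.37) in control libraries. The groups did not overlap, but the counting intervals of overexpression library A and control library A did. The log2 change of the ratio of the 5p to the 3p arm was 0.76, with 0.40 without overexpression library B and 1.11 without overexpression library A. For miR-27b the 5p arm took 0.928% and 0.802% in overexpression libraries, against 1.06% and 0.842% in control libraries, which overlapped. The 24-2 arm took 0.777% and 1.199% of its sum with miR-24-3p in overexpression libraries, against 0.637% and 1.097% in control libraries, which also overlapped.

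Outside the clusters, 3 miRNAs had the profile over the 4 libraries nearest to the mean profile of the 5 members of the 3p arm, among 355 with a mean of at least 50. Nearness was the root mean square distance of log2(normalized count + 1), each centred on its own mean, so it describes only 4 libraries. The mean profile averages members whose limma differences ran from -0.96 to 0.15, so nearness to it is not likeness to each member. miR-152-3p was nearest, at 0.0117, with 422 and 404 normalized counts in overexpression libraries, against 506 and 580 in control libraries. miR-3200-3p (0.0387) and miR-340-5p (0.0468) followed. None of the 3 passed the limma test, with adjusted p of 0.351, 0.465 and 0.340.

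Of 15 other miRNAs known to act in T helper cells, 1 rose and 4 fell by the same limma test, with a median log2 difference of -0.10. Of all 1115 miRNAs, 1.88% were called higher and 3.05% lower, and their median was 0.03. The list was chosen with earlier results of these data known, so its counts are not an independent comparison with all miRNAs. Scaling by total reads called 1 higher and 1 lower, a pseudocount of 0.5 or no filter called 1 higher and 2 lower, and a constant prior variance and the fits without a library called 0. miR-146a-5p, a repressor of NF-kB signalling genes, rose by 0.92 (adjusted p = 0.0250). let-7a-5p had the smallest adjusted p, with 10473 and 9162 normalized counts in overexpression libraries, against 27428 and 31880 in control libraries (log2 difference -1.59, adjusted p = 0.0018). The other 3 that fell were miR-17-5p of the miR-17-92 cluster (-1.27, adjusted p = 0.0430), miR-29b-3p (-0.90, adjusted p = 0.0309) and miR-29a-3p (-0.66, adjusted p = 0.0456), and miR-29 is known in mouse T cells to repress Tbx21 and Ifng. miR-155-5p, which is induced when T cells are activated, had the largest adjusted p, 0.968, at 2.72 and 10.8 normalized counts in overexpression libraries, against 3.20 and 11.03 in control libraries. The difference of miR-23b-3p, -0.96, lay within the range of this list, -1.59 to 0.92.

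Markers of T cells were abundant in every library with a sum over 6 of 360568 and 340633 normalized counts in overexpression libraries, against 364840 and 386989 in control libraries. Of these 6, miR-142-5p fell and the other 5 did not pass. The count that fell was 2 with upper-quartile scaling and with a minimum mean of 50. It was 0 with total reads, that total less the 10 most abundant miRNAs, a pseudocount of 0.5 and no filter. Some markers of other cells were higher with overexpression, beside 1.88% of all 1115 miRNAs called higher and 3.05% called lower. The marker lists were chosen with earlier results of these data known. With a constant prior variance, 0 markers of any list passed. Of 7 striated muscle markers, 5 were in the table and 4 of these rose, with a sum of 4078 and 4891 normalized counts in overexpression libraries, against 56.0 and 33.1 in control libraries, where miR-133b and miR-206 were at 0. Of 5 smooth muscle and fibroblast markers 2 rose, with a sum of 437 and 502 normalized counts in overexpression libraries, against 115 and 151 in control libraries. Of 3 red blood cell markers 1 rose, with a sum of 769 and 1126 normalized counts in overexpression libraries, against 158 and 121 in control libraries. Of 3 myeloid and endothelial markers 0 passed, with a sum of 4454 and 3817 normalized counts in overexpression libraries, against 4882 and 5157 in control libraries. The part of these RNAs in the members' differences was not tested.

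The seeds were also looked up in the sequences of the Th2 genes that these families are known for. The search took the reverse complement of the seed on the sense strand, AATGTGA for miR-23, CTGAGCC for miR-24 and ACTGTGA for miR-27, and also the 6 letters that pair with bases 2 to 7, which lie inside the longer motifs (ATGTGA for miR-23, TGAGCC for miR-24 and CTGTGA for miR-27). The GENCODE 3′ UTR of GATA3, 1180 bases long, held 0 matches of each 7-letter motif, which 14.4%, 12.6% and 12.3% of 9073 3′ UTR windows of that length hold for miR-23, miR-24 and miR-27. It held 2 matches of CTGTGA, which 41.3% of such windows hold at least once, and none of the other 6-letter motifs. Both matches are shown, from the plus strand of GRCh38 and with the match in capitals, because they are the only matches found.
chr10:8074207-8074230: gaatctggaccccatCTGTGAata
chr10:8074259-8074282: acagggtctctagtgCTGTGAaaa
Each match is followed by A, and the letters are the same for miR-27a-3p and miR-27b-3p, since C19U lies outside the seed. The share of windows with 2 such matches, or with a match followed by A, was not computed. The IL4 3′ UTR, 89 bases long, held 0 matches of any of the 6 motifs, which 1.096% to 4.28% of 18340 windows of that length hold. The PELATON transcript that was searched, from GENCODE and 539 bases long, also held 0 matches, where 5.22% to 23.2% of 9370 windows hold them. No other PELATON transcript was searched, nor was the sequence carried by the lentivirus. A match describes letters only, and these data did not measure the mRNAs.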

How the data were processed

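Small RNA was sequenced from Jurkat cells with PELATON overexpression and from control cells. By the study's methods a small RNA kit was used, whereas the labels describe an mRNA kit. The authors deposited 1 table of mature miRNAs, made with DESeq on build GRCh38.p14 per the labels, whose columns used here are normalized count signal values: the mean over all libraries and the mean of each group. The aligner and the rule for reads that fit several miRNAs are not given in the sources used here. The authors' fold change of control over overexpression, its log2, p-value and adjusted p were not used.

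Each group mean was matched to whole reads of 2 libraries, with 1 solution for every one of 1450 miRNAs in both groups (relative tolerance 1e-14, absolute tolerance 1e-11). The planned test was then run on these libraries: limma 3.58.1 in R 4.3.3 with a trended prior variance, on log2(normalized count + 1), for 1115 miRNAs with a mean of at least 1 and with Benjamini-Hochberg adjustment over all of them. A fold change on this scale understates the change of low miRNAs. The depth was 1177485 to 2663279 reads a library. Recovery and test were tested on simulated data. Alternatives were 4 scalings (TMM, upper quartile, total reads, total reads less the 10 most abundant miRNAs), pseudocounts of 0.5 and 5, no filter or a minimum mean of 50, a constant prior variance, folds of 1.5 and 4, and leaving out each library. The text names the 8 members, the other arms of their hairpins, miRNAs of the same seed and the 3 nearest profiles. The study reports miR-10b-5p, miR-1291 and miR-6775-3p as downregulated by PELATON overexpression, and they bear on the group labels. All 3 were higher here in the libraries labelled overexpression, and only miR-10b-5p of them passed the limma test. The cause was not tested, and the direction of every difference still rests on the labels. Of the T helper list, the text names those that passed and those with the smallest and largest adjusted p. The members and lists were chosen with earlier results of these data known. Mature sequences were matched by name to RefSeq, for 8 of 8 members and 1285 of 1450 miRNAs.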

Additional observations from a re-analysis of the deposited data

How the results depend on the processing

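The sign of miR-23b-3p, miR-23a-3p and miR-27a-3p was negative under every scaling, pseudocount, filter and prior tried and without any library. The count of members that passed was 1 as reported, 2 with upper-quartile scaling and with a minimum mean of 50, and 0 with total reads, total reads less the 10 most abundant, a pseudocount of 0.5 and a constant prior variance. Over all miRNAs, 55 passed as reported, 24 with total reads and 24 with that total less the 10 most abundant, 86 with a minimum mean of 50, and 0 with a constant prior variance, where 142 had an unadjusted p under 0.05. As reported, 21 were higher and 34 lower, against 19 and 56 with upper-quartile scaling and 16 and 8 with total reads. Without a library the limma fits called 0 members and 0 miRNAs, with 122 to 188 miRNAs at an unadjusted p under 0.05, and the lone library of a group was assumed to vary like the others. The number of miRNAs 2-fold apart was 338 as reported and 339 to 460 without a library. It was 578 at 1.5-fold, 70 at 4-fold, 121 with a pseudocount of 5 and 52 with a minimum mean of 50. The sign turned for miR-24-3p with total reads (0.12) and that total less the 10 most abundant (0.11), for miR-27b-3p with upper-quartile scaling (-0.0073), for miR-24-2-5p with upper-quartile scaling (-0.062), and for miR-27b-5p with TMM (-0.070) and upper-quartile scaling (-0.14). None of these passed under any setting tried, and the cause was not tested. Without a library, miR-27a-5p ranged from -0.081 to 0.64, miR-24-2-5p from -0.30 to 0.49, miR-27b-5p from -0.17 to 0.21 and miR-23b-3p from -1.15 to -0.77. The log2 change of miR-27b-3p over miR-23b-3p ranged from 1.03 to 1.19, that of miR-23b-3p over miR-23a-3p from -0.54 to -0.19, that of miR-24-3p over miR-27b-3p from -0.42 to -0.11 and that of miR-27a-5p over miR-27a-3p from 0.40 to 1.11. With total reads, miR-23a-3p was -0.36 and miR-27a-3p was -0.23. No paired analysis was possible because the groups share fewer than 2 replicate numbers. The p-values rest on 2 libraries a group.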

Other observations

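miR-3074-5p was chosen after its values were seen. It comes from MIR3074, which lies on the strand opposite MIR24-1, and hsa-miR-3074-5p had 61.8 and 118 normalized counts in overexpression libraries, against 43.2 and 52.6 in control libraries. Both overexpression libraries were above both control libraries, and its limma difference of 0.83 did not pass (SE 0.39, adjusted p = 0.319). Whether the counting used the strand is not given in the sources used here.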
